A study of Mus musculus with 8 samples.

Results

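Integrin and laminin chain genes encode both sides of a contact between cells and basement membrane. Their transcripts were followed in N33 mouse embryonic stem cells (ESCs) in 4 culture conditions. Members were taken by symbol, as every gene whose name was Itga, Itgb or Lama, Lamb or Lamc followed by its chain number or letter, and genes for integrin-binding proteins were not included. This gave 36 of the 20278 genes listed in any sample, namely 17 integrin α chains, 8 integrin β chains, 5 laminin α chains, 3 laminin β chains and 3 laminin γ chains.

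N33 is a single ESC line of the C57BL/6 strain, and poly-A RNA was sequenced from 2 samples in each condition, 8 in all. In the −F condition ESCs grew on gelatin, without feeder cells, in knockout DMEM with 20% fetal bovine serum and leukemia inhibitory factor (LIF, 1000 U/ml). In the F condition they grew in the same serum medium on feeders, which are mouse embryonic fibroblasts stopped from dividing by mitomycin C. In the F2i condition serum and feeders were kept and 2i, a pair of kinase inhibitors, was added. In the NB2i condition neither serum nor feeders were used: the medium was N2B27 with LIF (1000 U/ml), the Gsk3β inhibitor CHIR99021 (3 μM) and the Mek inhibitor PD0325901 (1 μM), on plates coated with poly-L-ornithine and laminin protein. The doses of 2i are stated for NB2i only. F2i and F differed by 2i, whereas NB2i and F2i differed at once by feeders, serum, basal medium and plate coating, whose parts cannot be told apart. Before RNA extraction, ESCs grown on feeders were separated from them 2 times by differences in adherence, and fibroblast markers were still found in their RNA.

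Integrins are surface receptors made of 1 α and 1 β chain, and the α chain largely sets the ligand. α3, α6 and α7 chains bind laminins, α5, αv and α8 bind RGD-bearing proteins such as fibronectin and vitronectin, and α1, α2, α10 and α11 bind collagens. Laminins are secreted trimers of 1 α, 1 β and 1 γ chain, named by their chain numbers, so that laminin-511 holds α5, β1 and γ1. Laminins of the early embryo are laid down by cells of the inner cell mass and by extraembryonic endoderm, and laminin-coated plates are a common support for feeder-free ESCs.

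To show the regulatory DNA in front of chains that moved in opposite directions between −F and NB2i, the 250 bases before the RefSeq start are given for 1 integrin chain and 1 laminin chain that fell (Itga3 and Lamb1) and for 1 of each that rose (Itgav and Lamb2). These are RefSeq promoter windows of GRCm38.p6 (mm10), written 5′ to 3′ on the strand of the gene, and a window was found for 23 of the 36 members. Capitals mark a GC box (GGGCGG, the binding motif of Sp1-type factors, on either strand). In the GENCODE annotation of mm10, whose starts differ, the last 87 bases of the Itga3 window, 59 of the Lamb1 window and 126 of the Lamb2 window lie inside the gene, and none of the Itgav window. The windows lie at chr11:95076715-95076964 (minus strand) for Itga3, chr12:31265043-31265292 (plus) for Lamb1, chr2:83724147-83724396 (plus) for Itgav and chr9:108479612-108479861 (plus) for Lamb2.
Itga3: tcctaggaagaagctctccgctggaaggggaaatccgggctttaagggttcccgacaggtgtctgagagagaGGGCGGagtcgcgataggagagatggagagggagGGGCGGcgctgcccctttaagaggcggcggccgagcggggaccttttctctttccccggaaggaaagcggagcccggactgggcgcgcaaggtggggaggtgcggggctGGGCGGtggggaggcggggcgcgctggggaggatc
Lamb1: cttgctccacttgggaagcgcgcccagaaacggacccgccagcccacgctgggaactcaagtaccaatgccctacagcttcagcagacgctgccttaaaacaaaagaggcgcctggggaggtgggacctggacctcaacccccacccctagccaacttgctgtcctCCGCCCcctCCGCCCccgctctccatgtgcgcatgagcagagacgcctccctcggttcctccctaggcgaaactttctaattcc
Itgav: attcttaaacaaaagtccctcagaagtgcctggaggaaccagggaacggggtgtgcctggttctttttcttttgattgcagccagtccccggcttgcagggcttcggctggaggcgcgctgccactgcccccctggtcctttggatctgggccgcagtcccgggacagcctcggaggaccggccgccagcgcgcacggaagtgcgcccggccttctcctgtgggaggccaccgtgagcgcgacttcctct
Lamb2: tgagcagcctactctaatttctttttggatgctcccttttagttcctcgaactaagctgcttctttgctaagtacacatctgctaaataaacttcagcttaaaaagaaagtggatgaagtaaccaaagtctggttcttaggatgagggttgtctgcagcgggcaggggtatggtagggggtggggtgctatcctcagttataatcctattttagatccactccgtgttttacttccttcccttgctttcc
The GC box was present in 32.7% of 32851 promoter windows cut to the same length. It occurred 3 times in the Itga3 window, 2 times in the Lamb1 window, and not in those of Itgav and Lamb2. GC content was 67.6%, 62.0%, 64.4% and 43.6% in the order printed. The TATA box (TATAAA), the E box (CACGTG), the AP-1 motif (TGANTCA), the TCF/LEF core (CTTTGA) and the TEAD core (GGAATG) were also searched on both strands and were not in these 4 windows, and they were in 12.4%, 6.02%, 6.75%, 13.8% and 12.6% of all windows. Among other members lower in NB2i than in −F, the windows of Itga1, Itga2b, Itga8 and Itga9 held no GC box. That of Itgb1 held 1. A second RefSeq window of Itga3 (chr11:95069199-95069448) also held 1. Among members not called between −F and NB2i, the windows of Lama5, Itgb5 and Itga5 held 4, 3 and 2. Those of Itga10, Itga11, Itgb7 and Lama2 held none. No window was found for Itgb4, Lama1 and Lamc1, which were higher in NB2i than in −F. These matches are letters in a window and say nothing of whether a factor was bound.

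Total expected counts per sample were between 20129641 and 20664488, so depth was nearly equal. ESC markers were present throughout, with a summed level of 4159 to 4860 FPKM (RNA-seq level corrected for transcript length and depth) over 10 genes. In sum, fibroblast markers were higher with feeders than without, and they also differed between conditions alike in feeders. The sum over 16 of them was 46.3 to 47.4 FPKM in −F, 354 to 363 in F, 789 to 799 in F2i and 3.11 to 3.99 in NB2i. Most of the −F sum was Tagln, at a mean of 29.7 FPKM. All 16 markers were lower in NB2i than in F2i, and Dcn, Lum, Postn and Fap were listed at 0 in both NB2i samples. In such bulk RNA, fewer cells of a type and less RNA per cell cannot be told apart. Endoderm markers other than Sparc also moved, with a sum over 11 genes of 7.90 to 10.2 FPKM in −F, 23.7 to 25.6 in F, 8.51 to 9.30 in F2i and 6.28 to 6.78 in NB2i.

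The abundant chains were few. Of the 36 members, 23 reached a mean of 1 FPKM in some condition, 15 did so in every condition and 13 in none. Itgb1, Itga6, Lamc1, Lama5 and Lamb1 stood above 20 FPKM in all 8 samples. The 5 members with too few counts to be tested were Itga2, Itgax, Itgb6, Itgb8 and Lamc3, none of which exceeded 0.17 FPKM in any sample. The other 31 were tested, and a member is called higher or lower below when its adjusted p was under 0.05 and its fold change at least 2 (edgeR's quasi-likelihood test, adjusted over 15287 genes). A smaller change that passed the adjusted p is described as under 2-fold.

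**Figure D1:**
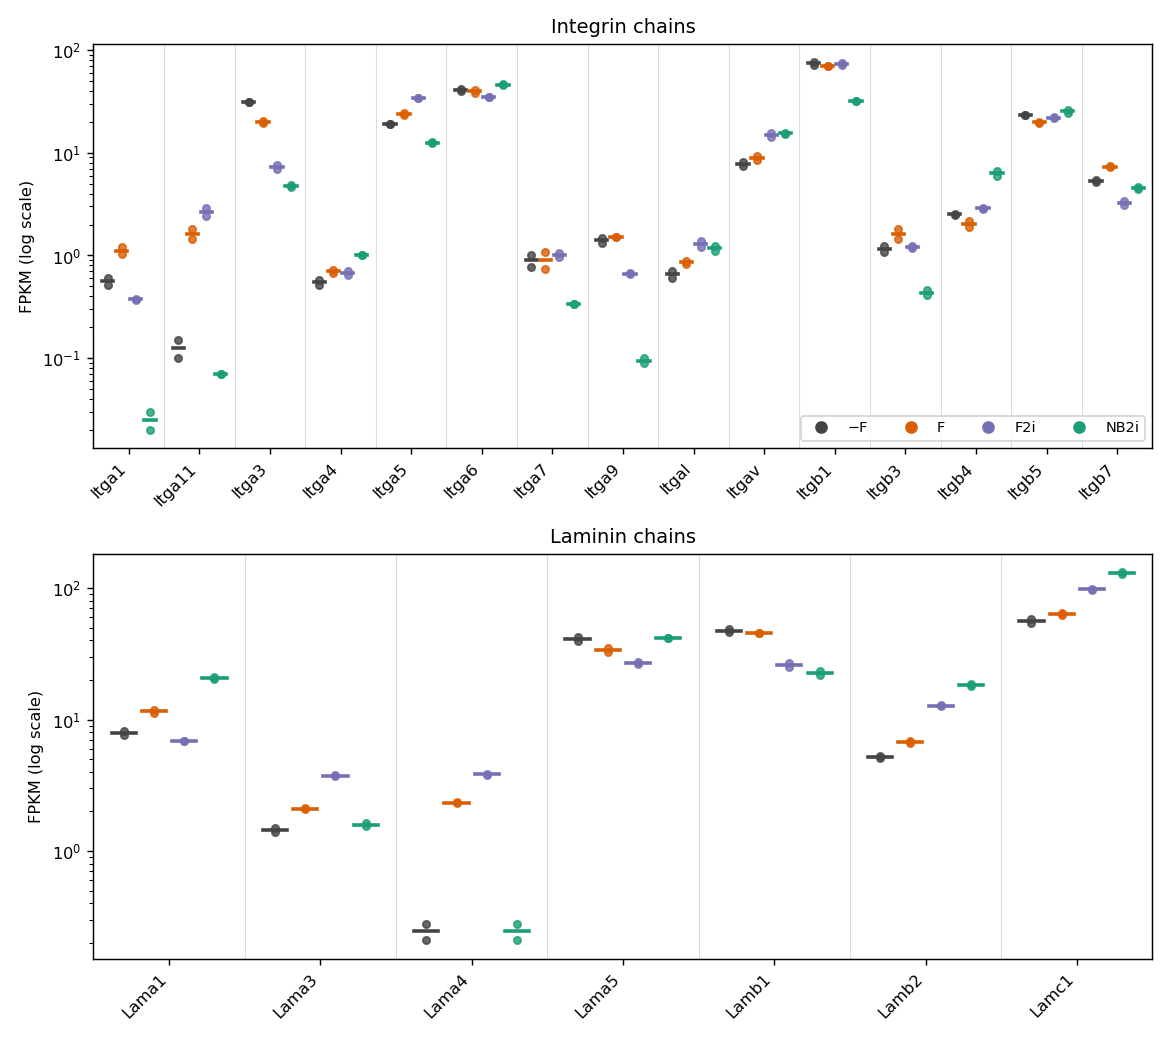
FPKM on a log scale of 22 members that reached a mean of 1 FPKM in some condition, with integrins above and laminins below. Each point is a sample and each short line the mean of 2 samples. Itga3 stepped down from 30.8 FPKM in −F to 4.66 and 4.85 in NB2i, while Lamc1 stepped up to 131 and 128.

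With feeders, 5 members were higher and none lower. Itga1, Itga8, Itga11, Lama2 and Lama4 were the higher ones in F against −F, which is 16.1% of the tested members, where 5.59% of all tested genes were higher and 1.65% lower. At the adjusted p alone 16 members were higher and 5 lower, 5 were lower at an unadjusted p under 0.05, and neither DESeq2 nor limma called a member lower with the same limits. All 5 are low in ESCs without feeders, and with at least 10 counts required in every sample 1 member was called higher.

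With 2i added to feeders and serum, 2 members were higher, Lama2 among them, and 4 lower (Itga1, Itga3, Itga9 and Itgb7). These are 6.45% and 12.9% of the tested members, against 6.44% and 7.00% of all tested genes, so the share higher was that of the background. The median log2 difference over the tested members was 0.22 in F against −F, 0.19 in F2i against F, −0.60 in NB2i against F2i and 0.05 in NB2i against −F, and it lay within 0.02 of 0 over all genes in each.

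From F2i to NB2i 2 members were higher (Itgb4 and Lama1) and 13 lower. The lower ones were 7 integrin α chains (Itga1, Itga5, Itga7, Itga8, Itga9, Itga11 and Itgam), 3 integrin β chains (Itgb1, Itgb2 and Itgb3) and 3 laminin α chains (Lama2, Lama3 and Lama4). They make up 41.9% of the tested members, where 13.3% of all tested genes were lower, and the 2 higher members are 6.45%, against 6.01%. The call of Itgam rested on single samples, since its log2 difference of −1.09 became −0.84 (adjusted p 0.18) without F2i replicate 2 and −0.72 (adjusted p 0.21) without NB2i replicate 1.

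Between the 2 feeder-free conditions, 6 members were higher in NB2i than in −F, among them Itgav, Itgb4, Lama1, Lamb2 and Lamc1, and 10 lower (Itga1, Itga2b, Itga3, Itga7, Itga8, Itga9, Itgb1, Itgb2, Itgb3 and Lamb1). These are 19.4% and 32.3% of the tested members, where 11.1% of all tested genes were higher and 16.1% lower. Of the 10 lower members, 9 are integrin chains, which also make up most of the 36 members (17 α and 8 β chains). The 4 comparisons share samples, so their results are not independent of each other. Over the comparisons 23 members were called at least once, and Itga4, Itga6, Itga10, Itgae, Itgal, Itgb5, Lama5 and Lamb3 were tested without being called. Leaving out 1 sample added calls for Itgae in F2i against F (log2 1.14 without F replicate 2, 0.73 with it), Itga2b in NB2i against F2i (−1.10 without NB2i replicate 2, −0.71 with it), and Itga4 and Itgal in NB2i against −F (1.02 and 1.0 without −F replicate 2, 0.94 and 0.90 with it).

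**Figure D2:**
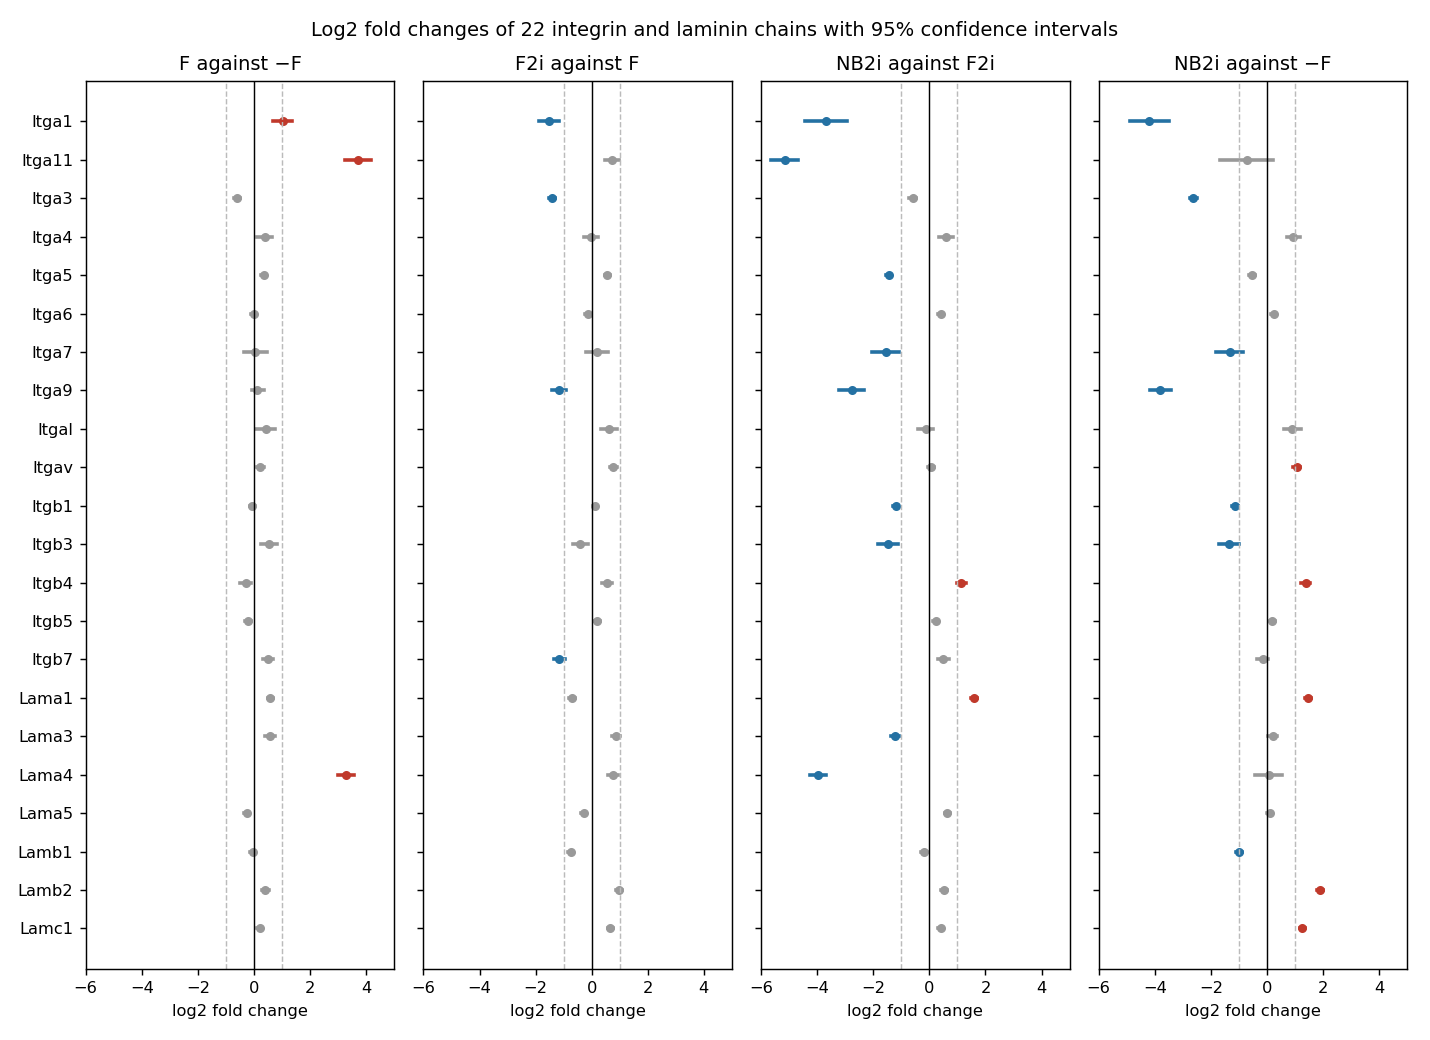
Log2 fold changes from edgeR in 4 comparisons for 22 members of at least 1 FPKM in some condition, with bars for 95% confidence intervals, red for higher, blue for lower and grey for not called, and dashed lines at a 2-fold change. Itga11 and Lama4 stand farthest right in F against −F (3.69 and 3.28), and Itga1 stands farthest left in NB2i against −F (−4.20).

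Among the laminin-binding receptor chains, Itga3 was lower at every step while Itga6 stayed between 34.9 and 46.5 FPKM. Itga3 encodes the α3 chain of the laminin receptor α3β1 (chr11:95044474-95076801 in mm10). It stood at 30.8 and 30.8 FPKM in −F, 19.5 and 20.5 in F, 7.53 and 6.99 in F2i, and 4.66 and 4.85 in NB2i. No sample of one condition reached the level of the next. It was under 2-fold lower in F than in −F (log2 −0.60, SE 0.046, adjusted p 7.9e-10) and lower in F2i than in F (−1.42, SE 0.054, adjusted p 2.3e-15). The step from F2i to NB2i was again under 2-fold (−0.60, SE 0.065, adjusted p 5.5e-08), and the whole range from −F to NB2i came to −2.62 (SE 0.055, adjusted p 2.6e-20).

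Itga6, the partner of both β1 and β4 in laminin receptors (chr2:71745616-71858416), was the most abundant α chain in every sample. Its levels were 40.1 and 41.4 FPKM in −F, 38.5 and 40.9 in F, 35.1 and 34.9 in F2i, and 46.5 and 45.5 in NB2i. F and −F overlapped, with a log2 difference of −0.02 (95% confidence interval −0.11 to 0.07). It was higher by under 2-fold in NB2i than in F2i (0.40, SE 0.043, adjusted p 5.5e-08) and than in −F (0.24, SE 0.043, adjusted p 3.5e-05). Itga7, known from muscle, was near 1 FPKM in the 3 serum conditions (0.74 to 1.08) and 0.34 in both NB2i samples, lower than in F2i (log2 −1.56, SE 0.23, adjusted p 4.9e-06).

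The β chains of these receptors moved apart in NB2i. Itgb1, the common partner of most α chains (chr8:128685654-128733200), was at 69.1 to 75.7 FPKM in the 6 serum samples and at 32.2 and 31.7 in NB2i. It was lower in NB2i than in F2i (log2 −1.20, SE 0.044, adjusted p 8.0e-16) and than in −F (−1.14, SE 0.044, adjusted p 6.9e-16), and F differed from −F by −0.06 (adjusted p 0.25). Itgb4 encodes the β4 chain, which pairs with α6 alone and is best known from hemidesmosomes. It was at 2.49 and 2.56 FPKM in −F, 1.90 and 2.16 in F, 2.86 and 2.92 in F2i, and 6.59 and 5.98 in NB2i. The NB2i samples lay above all others, 1.13 higher on the log2 scale than F2i (SE 0.076, adjusted p 2.5e-11) and 1.38 higher than −F (SE 0.077, adjusted p 5.2e-13). A non-coding gene on the opposite strand overlaps 7.66% of the exon bases of Itgb4, and the strand of the reads is not stated. Smaller overlaps on the opposite strand, of 1.83% to 5.90% of exon bases, exist for Itga8, Itgav, Lama2 and Lama3. For Itga1, 3.68% of exon bases are shared with a gene model on the same strand.

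Of the RGD-binding chains, Itga5 and Itgav rose together with 2i and separated in NB2i. Itga5 encodes the fibronectin receptor chain α5 (chr15:103344286-103366763). Its FPKM was 19.1 and 19.1 in −F, 24.6 and 23.3 in F, 34.3 and 34.4 in F2i, and 12.8 and 12.3 in NB2i. It thus rose by under 2-fold with feeders (log2 0.35, SE 0.046, adjusted p 3.0e-06) and with 2i (0.56, SE 0.044, adjusted p 4.3e-10). In NB2i it was lower than in F2i (−1.45, SE 0.047, adjusted p 9.3e-17) and lower by under 2-fold than in −F (−0.54, SE 0.049, adjusted p 2.0e-09).

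Itgav, the αv chain of the vitronectin receptors (chr2:83724397-83806916), was at 7.43 and 8.12 FPKM in −F, 8.48 and 9.36 in F, 15.6 and 14.1 in F2i, and 15.6 and 15.3 in NB2i. Every sample with 2i lay above every sample without it. It was under 2-fold higher in F2i than in F (log2 0.77, SE 0.059, adjusted p 2.7e-10). NB2i did not differ detectably from F2i (0.06, 95% confidence interval −0.05 to 0.18). It was higher in NB2i than in −F (1.06, SE 0.059, adjusted p 5.6e-13), just past the 2-fold limit, and without −F replicate 1 this became 0.99.

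Itgb5, the β5 partner of αv (chr16:33829665-33949338), stayed between 19.6 and 26.2 FPKM in all 8 samples and every difference was under 2-fold. Itgb3, the other well-known partner of αv, was far lower, at 1.07 to 1.83 FPKM in serum and 0.41 and 0.46 in NB2i. It was lower in NB2i than in F2i (log2 −1.48, SE 0.17, adjusted p 1.1e-07) and than in −F (−1.35, SE 0.17, adjusted p 3.0e-07). Itga8, a chain of mesenchymal cells that binds nephronectin, was at 0.14 and 0.21 FPKM in −F, 0.51 and 0.60 in F, 0.99 and 0.86 in F2i, and 0.02 and 0.04 in NB2i. It was highest in the feeder conditions, with a log2 difference of 1.68 between F and −F (SE 0.24, adjusted p 1.0e-05). Itga2b, the platelet chain that pairs with β3, was at 0.76 to 1.09 FPKM in the 4 serum samples without 2i, 0.50 and 0.47 in F2i, and 0.22 and 0.37 in NB2i, where it was lower than in −F (−1.69, SE 0.25, adjusted p 4.2e-06).

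Collagen-binding chains were low throughout, and those that moved followed different conditions. Itga11, a fibroblast collagen receptor chain, was at 0.10 and 0.15 FPKM in −F, 1.46 and 1.81 in F, 2.43 and 2.87 in F2i, and 0.07 and 0.07 in NB2i. It was higher in F than in −F (log2 3.69, SE 0.22, adjusted p 1.6e-11) and lower in NB2i than in F2i (−5.15, SE 0.23, adjusted p 1.9e-14). Itga1, the α1 chain of a collagen and laminin receptor, had another order. It was at 0.52 and 0.60 FPKM in −F, 1.20 and 1.03 in F, 0.38 and 0.37 in F2i, and 0.03 and 0.02 in NB2i, the last from 4 and 3 counts.

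Itga1 was therefore higher in F than in −F (log2 1.02, SE 0.16, adjusted p 2.6e-05), but this fell to 0.91 without −F replicate 1 and to 0.91 without F replicate 1, under the 2-fold limit. With 2i it was lower (−1.53, SE 0.17, adjusted p 1.4e-07), where 7 of the 16 fibroblast markers were higher and 9 were not called. Itga10, a cartilage collagen receptor chain, was at 0.43 to 0.88 FPKM and not called, and 33.5% of its exon bases are shared with a gene model on the same strand. Itga2 was at 0.17 and 0.07 FPKM in F, listed at 0 in both NB2i samples and at most 0.03 in the others.

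Itga9, whose product binds tenascin and VCAM, was lower in both 2i conditions. Its FPKM was 1.48 and 1.33 in −F, 1.51 and 1.52 in F, 0.67 and 0.66 in F2i, and 0.09 and 0.10 in NB2i. It was lower in F2i than in F (log2 −1.15, SE 0.12, adjusted p 4.9e-08) and lower again in NB2i than in F2i (−2.77, SE 0.21, adjusted p 2.5e-10). Itga4, the related VCAM and fibronectin receptor chain, went the other way within narrow limits, from 0.52 and 0.58 FPKM in −F to 1.01 and 1.00 in NB2i (log2 0.94, adjusted p 3.0e-07, under 2-fold). Reads of Itga4 may be shared with Cerkl, which overlaps 8.04% of its exon bases on the opposite strand.

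Integrin chains known from leukocytes were also measured. Over 9 leukocyte markers the summed level was 39.8 to 40.3 FPKM in −F, 42.6 to 43.7 in F, 88.2 to 94.4 in F2i and 177 to 181 in NB2i. Most of this sum was Laptm5, and Ptprc did not exceed 0.08 FPKM in any sample. The markers did not move together. In NB2i against −F, Spi1, Cd68 and Laptm5 were higher and Csf1r, Cd14 and Coro1a lower. In F2i against F, Spi1 and Laptm5 were higher and Adgre1, Cd14 and Coro1a lower. The part of leukocyte RNA in the values of these integrin chains was not tested. Itgb7, the β partner of α4 and αE, was at 5.19 and 5.39 FPKM in −F, 7.46 and 7.21 in F, 3.36 and 3.08 in F2i, and 4.59 and 4.45 in NB2i. It was lower in F2i than in F (log2 −1.15, SE 0.088, adjusted p 3.5e-10). Itgal, the αL chain, was at 0.61 to 0.89 FPKM without 2i and 1.10 to 1.37 with it, and the increase with 2i on feeders was under 2-fold (0.62, adjusted p 7.7e-04). Itgb2, the β partner of αL and αM, did not exceed 0.25 FPKM and had 1 and 2 counts in NB2i. Itgae stayed at 0.23 to 0.55 FPKM and Itgam at 0.06 to 0.29, and 68.7% of the Itgam exon bases are shared with another gene model on the same strand.

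Among the laminin α chains, Lama5 and Lama1 were the main ones and did not move together. Lama5 encodes the α5 chain of laminin-511 (chr2:180176373-180225859). It was at 42.4 and 39.8 FPKM in −F, 32.9 and 34.7 in F, 27.3 and 26.6 in F2i, and 42.0 and 41.6 in NB2i. Its level dipped with feeders and 2i, each time by under 2-fold (log2 −0.26, adjusted p 6.2e-05, and −0.29, adjusted p 9.2e-06), and was back in NB2i. NB2i and −F differed by 0.09 (95% confidence interval 0.00 to 0.18).

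Lama1, the α1 chain of laminin-111 and of Reichert's membrane (chr17:67697259-67822647), was at 8.12 and 7.64 FPKM in −F, 11.3 and 11.8 in F, 6.88 and 6.88 in F2i, and 21.1 and 20.4 in NB2i. It was under 2-fold higher with feeders (log2 0.58, SE 0.048, adjusted p 3.5e-09) and under 2-fold lower with 2i (−0.71, SE 0.049, adjusted p 5.2e-11). Of 12 endoderm markers, 9 were higher in F than in −F, and 8 were lower and 1 higher in F2i than in F. Their part in these 2 changes was not tested. In NB2i Lama1 was higher than in F2i (1.60, SE 0.047, adjusted p 1.8e-17) and than in −F (1.46, SE 0.046, adjusted p 2.2e-17). In NB2i against −F 3 of the 12 endoderm markers were higher (Sox7, Srgn and Sparc) and 4 lower, and the mean of Sparc was 97.2 FPKM in −F, 160.5 in F, 456.3 in F2i and 456.6 in NB2i. Their part in the NB2i level of Lama1 was not tested.

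The remaining laminin α chains were highest in F2i. Lama4, the α4 chain of mesenchymal and vascular laminins (chr10:38965515-39110188), was at 0.28 and 0.21 FPKM in −F, 2.32 and 2.36 in F, 3.87 and 3.78 in F2i, and 0.28 and 0.21 in NB2i. It was higher in F than in −F (log2 3.28, SE 0.15, adjusted p 8.5e-14) and lower in NB2i than in F2i (−3.97, SE 0.13, adjusted p 1.8e-16), and its 2 feeder-free conditions overlapped. Lama2, the α2 chain of muscle and mesenchymal laminins, had the same order at a lower level, with 0.01 to 0.02 FPKM in the feeder-free samples, 0.21 and 0.26 in F, and 0.58 and 0.50 in F2i. It was higher in F than in −F (3.54, SE 0.38, adjusted p 1.7e-07), where it had 3 and 5 counts, and higher in F2i than in F (1.24, SE 0.19, adjusted p 1.3e-05).

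Lama3, the α3 chain of epithelial laminins, was at 1.39 and 1.50 FPKM in −F, 2.13 and 2.08 in F, 3.69 and 3.76 in F2i, and 1.54 and 1.63 in NB2i. It was lower in NB2i than in F2i (log2 −1.22, SE 0.071, adjusted p 2.1e-12). In contrast to Lama4, its range over the 8 samples was narrow, and feeders raised it by under 2-fold (0.56, adjusted p 5.8e-06).

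The levels of the main laminin β chains came closer together, with Lamb1 above Lamb2 in every sample. Lamb1 encodes the β1 chain (chr12:31265234-31329644) and was at 46.1 and 48.8 FPKM in −F, 45.2 and 45.5 in F, 27.1 and 25.3 in F2i, and 23.3 and 22.0 in NB2i. It was under 2-fold lower with 2i (log2 −0.75, SE 0.047, adjusted p 9.1e-12), and lower in NB2i than in −F at the 2-fold limit (−1.0, SE 0.047, adjusted p 2.6e-14). The last call was lost without −F replicate 2 (−0.96) and without NB2i replicate 2 (−0.95).

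Lamb2, the β2 chain of laminins such as laminin-521 (chr9:108479736-108490530), rose at each step instead. Its FPKM was 5.28 and 5.08 in −F, 6.60 and 6.82 in F, 12.8 and 12.6 in F2i, and 18.6 and 18.1 in NB2i. The difference between NB2i and −F was 1.89 (SE 0.054, adjusted p 3.7e-18), and the largest single step was that with 2i (0.96, SE 0.054, adjusted p 1.6e-12, under 2-fold). The share of Lamb1 in the summed FPKM of the laminin β chains went from 89.0% in −F and 86.3% in F to 66.2% in F2i and 54.7% in NB2i, and that of Lamb2 from 9.73% and 12.8% to 32.2% and 44.4%. Lamb3, the β3 chain of epithelial laminins, stayed at 0.34 to 0.75 FPKM and was not called.

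Lamc1, the γ1 chain found in most laminins (chr1:153218922-153332786), was the most abundant laminin transcript, at 54.6 and 58.4 FPKM in −F, 62.8 and 64.8 in F, 99.0 and 97.2 in F2i, and 131 and 128 in NB2i. Every sample with 2i lay above every sample without it. It was under 2-fold higher in F2i than in F (log2 0.66, SE 0.044, adjusted p 2.7e-11) and higher in NB2i than in −F (1.26, SE 0.044, adjusted p 1.2e-16), in steps that were each under 2-fold. Lamc3 did not exceed 0.08 FPKM in any sample.

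**Figure D3:**
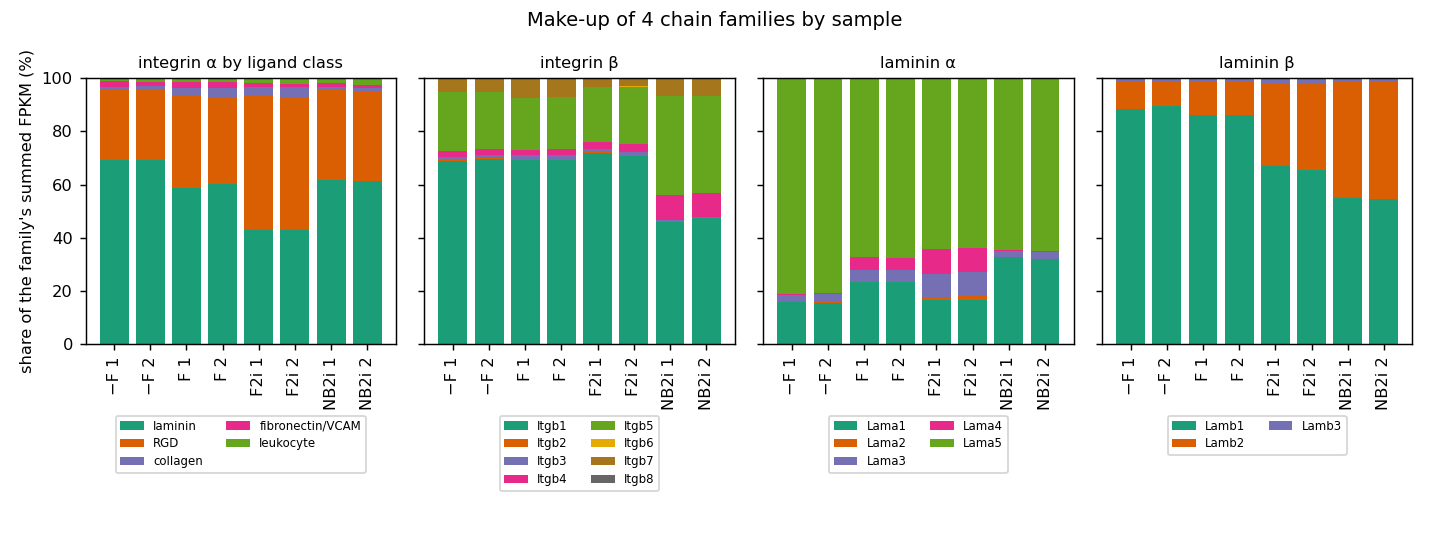
Share of each chain, or ligand class of α chains, in the summed FPKM of 4 chain families, as stacked bars for each of the 8 samples. The laminin-binding α chains fall from 69.1% in −F to 42.8% in F2i, the Itgb1 part shrinks to 46.6% in NB2i, and Lamb2 widens from left to right.

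Read as a repertoire, the integrin α chains shifted from laminin toward RGD receptors with feeders and 2i. In NB2i the shares came back to near those of F, not of −F. Laminin-binding chains (Itga3, Itga6 and Itga7) made up 69.1% ± 0.049 (SD, n = 2) of the summed α chain FPKM in −F, 59.5% ± 0.94 in F, 42.8% ± 0.069 in F2i and 61.5% ± 0.24 in NB2i. RGD-binding chains (Itga5, Itga8, Itgav and Itga2b) made up 26.7%, 33.7%, 50.1% and 34.0%. The 2 sets crossed only in F2i. This partial return in NB2i came with less transcript in all, since the integrin α sum was 100 to 106 FPKM in the serum samples and 83.6 and 82.7 in NB2i. From F2i to NB2i the mean of Itga5 went from 34.4 to 12.5 FPKM, and that of Itga3 fell further, from 7.26 to 4.755. These shares are descriptions with no test. The fibroblast marker sum had the same order over −F, F and F2i as the RGD-binding share and was lowest in NB2i, at 46.3 to 47.4 FPKM in −F, 354 to 363 in F, 789 to 799 in F2i and 3.11 to 3.99 in NB2i, and its part was not tested.

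Among the integrin β chains Itgb1 held 69.4%, 69.2% and 71.5% of the sum in −F, F and F2i, and 46.6% in NB2i, where Itgb5 held 36.9%. The laminin α sum was 50.67 FPKM in −F and 64.39 in NB2i, and the laminin β sum 53.29 and 41.36.

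An integrin or laminin needs all of its chains, so the least abundant transcript of each known combination was taken in every sample. This describes RNA only, and neither protein nor assembly was measured. For α6β1 that chain was Itga6 in −F, F and F2i (40.8, 39.7 and 35.0 FPKM) and Itgb1 in NB2i, at 32.2 and 31.7 FPKM. In NB2i alone, Itgb1 was thus below its most abundant α partner. Itgb1 has other α partners too, and a chain shared by several combinations was counted in full in each. These values therefore do not show in which condition Itgb1 falls short of its α partners together. For α6β4 the lowest chain was Itgb4 in all conditions, between 1.90 and 6.59 FPKM. For α3β1 and α5β1 it was the α chain throughout, and α5β1 was the higher of the pair from F on.

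For laminin-511 the lowest chain was Lama5 in −F and F (41.1 and 33.8 FPKM) and Lamb1 in F2i and NB2i (26.2 and 22.6). For laminin-521 it was Lamb2 throughout, at 5.18, 6.71, 12.7 and 18.3 FPKM from −F to NB2i. The 2 combinations were therefore several-fold apart in −F and close in NB2i. For laminin-111 it was Lama1, at 20.4 to 21.1 FPKM in NB2i, near the level of the lowest chain of laminin-511 there.

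**Figure D4:**
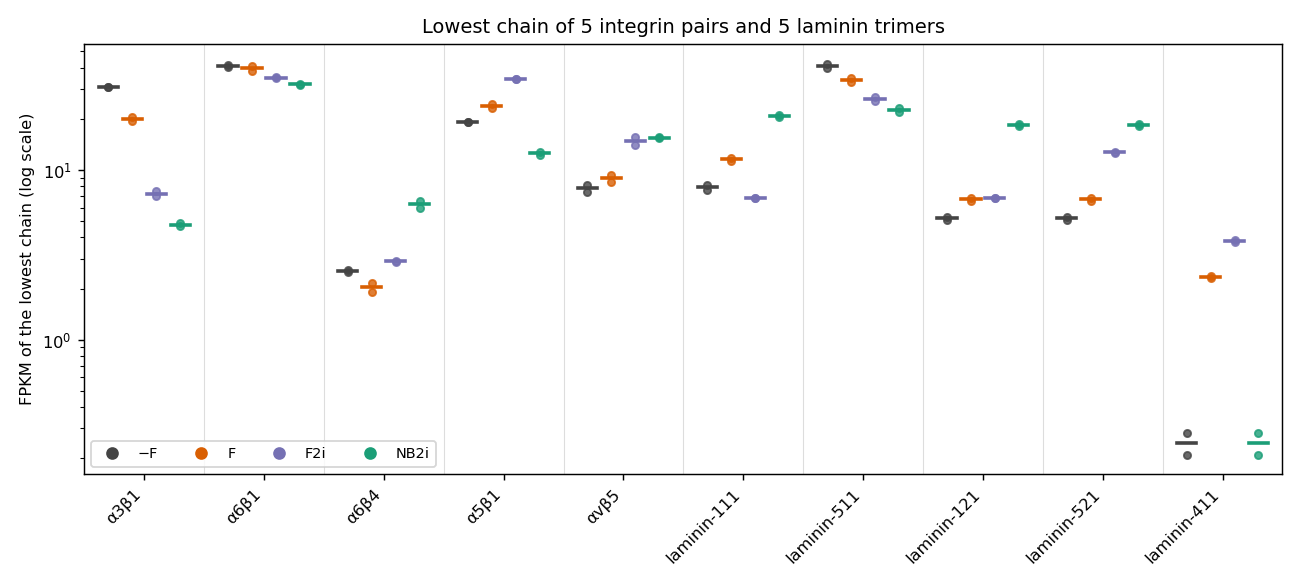
FPKM on a log scale of the least abundant chain for 5 integrin pairs and 5 laminin trimers, with a point for each sample and a line for the mean of 2. Laminin-521 climbs from 5.18 to 18.3 FPKM and laminin-511 comes down from 41.1 to 22.6, so that they nearly meet in NB2i.

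The chains that were higher with feeders were set beside the fibroblast markers by their order over the conditions. They were picked as higher in F than in −F, so sharing that step with the markers adds nothing. From F to F2i only Lama2 of them was called higher. Itga8, Itga11 and Lama4 were higher there by under 2-fold (log2 0.77, 0.73 and 0.75). Of the 16 markers, 15 were higher in F than in −F and 7 were higher in F2i than in F. Lama4, Lama2, Itga11 and Itga8 had the order of the marker sum over −F, F and F2i, and were at their lowest or at the −F level in NB2i. Itga1 was higher with feeders but lower with 2i. The part of fibroblast RNA in these results was not tested. The same markers are high in F2i beside the values of Itga5 and Lama3, which also peaked there, and their part was not tested either. Itga3, Itgav, Itgb1, Itgb4, Lama1, Lamb1, Lamb2 and Lamc1 were each called between −F and NB2i, between which the marker sum went from 46.3 to 47.4 FPKM down to 3.11 to 3.99, with 10 of the 16 markers lower and 1 higher. In −F most of that sum was Tagln, at a mean of 29.7 FPKM (0.255 in NB2i). Col3a1, Dcn, Lum, Postn, Prrx1 and Fap did not exceed 0.17 FPKM in either −F sample. Other markers of the list were present there and lower in NB2i. Acta2, Thy1, Twist1 and Col1a1 had means of 4.925, 4.48, 2.54 and 2.53 FPKM in −F. In NB2i their means were 0.05, 0.86, 0.75 and 0.53. The part of fibroblast RNA in the calls between −F and NB2i was not tested.

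**Figure D5:**
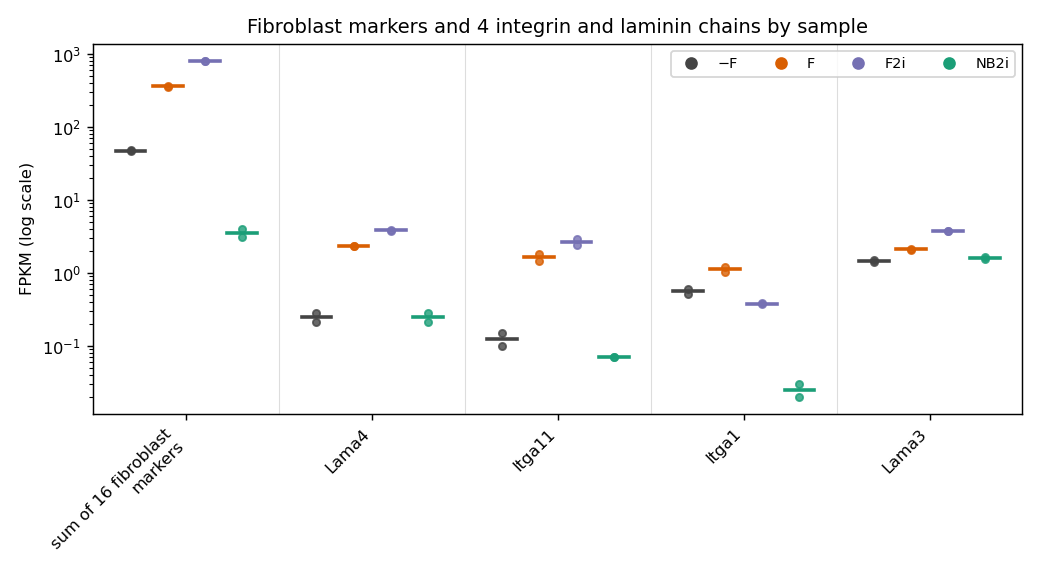
Summed FPKM of 16 fibroblast markers beside the FPKM of 4 chains, on a log scale with a point for each sample and a line for each mean. Lama4 and Itga11 rise from −F to F2i and drop in NB2i as the marker sum does (46.3 to 47.4, then 354 to 363, 789 to 799 and 3.11 to 3.99), whereas Itga1 is lower in F2i than in F.

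Of 30 adaptor and kinase genes that act on integrins inside the cell, all tested, 2 were higher and 1 lower in F against −F, 2 and 3 in F2i against F, none and 5 in NB2i against F2i, and 2 and 7 in NB2i against −F. The shares higher were 6.67%, 6.67%, 0% and 6.67%, against 5.59%, 6.44%, 6.01% and 11.1% of all tested genes, and the shares lower 3.33%, 10%, 16.7% and 23.3%, against 1.65%, 7.00%, 13.3% and 16.1%. With none called higher in NB2i against F2i by edgeR, DESeq2 or limma, 5 were higher at an unadjusted p under 0.05. Zyx, which encodes the focal adhesion protein zyxin, was at 17.9 FPKM in −F and 3.11 in NB2i (log2 −2.48, SE 0.077, adjusted p 1.7e-17). Parva, the ILK-binding α-parvin, went from 7.69 FPKM in F2i to 0.73 in NB2i (−3.39, SE 0.10, adjusted p 2.3e-17). Fermt1, a kindlin that activates integrins, was lower in F than in −F (−1.36, SE 0.16, adjusted p 6.2e-07) and at 0.08 FPKM in every F2i and NB2i sample. Tns1, a tensin, was higher in F than in −F (2.21, SE 0.13, adjusted p 9.2e-12). It was also higher in F2i than in F (1.33, adjusted p 3.6e-11) and in NB2i than in −F (2.64, adjusted p 2.5e-14). Bcar1, the p130Cas scaffold, was lower with 2i (−1.06, SE 0.052, adjusted p 2.0e-13).

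Of 20 matrix partners of laminins and integrins, 19 were tested. In F against −F 7 were higher and none lower, in F2i against F 5 and none, in NB2i against F2i 1 and 9, and in NB2i against −F 7 and 7. The shares higher were 36.8%, 26.3%, 5.26% and 36.8%, against 5.59%, 6.44%, 6.01% and 11.1% of all tested genes. The shares lower were 0%, 0%, 47.4% and 36.8%, against 1.65%, 7.00%, 13.3% and 16.1%. Where edgeR called none lower, DESeq2 and limma did not either, and 1 and 4 were lower at an unadjusted p under 0.05 in F against −F and F2i against F. Tnc and Thbs1, ligands of integrins in connective tissue, were higher in F than in −F (log2 7.62 and 3.66, adjusted p 6.9e-23 and 1.2e-21), beside the fibroblast markers, whose part was not tested. Col4a1 and Col4a2, the chains of basement membrane collagen, were lower in NB2i than in −F (−4.50 and −4.49, adjusted p 3.8e-21 and 3.4e-20), in contrast to Lamc1. Nid1, which links laminin to collagen IV, was higher with 2i, from 36.1 FPKM in F to 93.7 in F2i (1.41, SE 0.043, adjusted p 5.6e-17).

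Of 10 other laminin-binding surface proteins, none was called in F against −F or in NB2i against F2i, 1 was higher in F2i than in F and 2 were higher in NB2i than in −F. These are 10% and 20%, where 6.44% and 11.1% of all tested genes were higher. Of all tested genes, 5.59% were higher and 1.65% lower in F against −F, and 6.01% and 13.3% in NB2i against F2i. At an unadjusted p under 0.05 and any fold, 2 of the 10 were higher and 5 lower in F against −F, and 5 and 4 in NB2i against F2i. Neither DESeq2 nor limma called any of these. None was called lower in the other 2 comparisons by edgeR, DESeq2 or limma, where 1 and 3 were lower at an unadjusted p under 0.05. Of all tested genes, 7.00% were lower in F2i against F and 16.1% in NB2i against −F. Sdc2, the syndecan-2 proteoglycan, was at 3.82 FPKM in −F and 26.3 in NB2i (log2 2.85, SE 0.071, adjusted p 3.7e-19). Cd9, a tetraspanin that associates with laminin-binding integrins, was at 125.6 and 262.7 FPKM (1.13, SE 0.046, adjusted p 1.8e-15).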

How the data were processed

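Poly-A RNA of 8 samples was sequenced, and the authors mapped reads to mm10 with Bowtie2 and counted genes with RSEM. For each sample the deposited table lists expected counts, RSEM's estimates of reads per gene, which are not normalized, and 29.8% of them were not whole. The FPKM values deposited by the authors divide these by transcript length and depth. Genes not listed in a sample were taken as 0. Differences in transcript length models, and reads shared between overlapping genes, affect FPKM.

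Groups came from the labels. Members and gene lists were chosen with earlier results of these data known. After rounding, the expected counts entered edgeR's quasi-likelihood model (version 4.0.16, R 4.3.3), which was fitted to all 8 samples with condition as the only factor and TMM factors of 0.9774 to 1.028. A gene entered when 2 or more samples held 10 or more counts, which left 15287. Adjustment followed Benjamini and Hochberg, over all genes tested in a comparison. Shares and lowest chains used FPKM, with no test. Coordinates are from GENCODE vM21 (mm10), counted from 1. Full values were planned for members called with a mean of at least 1 FPKM, or with at least 5 FPKM in some condition, and for up to 4 called genes per list and comparison, of which the text gives a selection. The values of 1 member are counted but not reported here. The other members shown by value fall outside this rule. The scripts were tested on simulated data.

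Alternatives were DESeq2 1.42.0, its size factors in edgeR, other filters, only the groups compared, a replicate block, leaving out each sample, other thresholds, and limma (version 3.58.1) with a pseudocount of 1 or 0.1 added to FPKM before log2, for genes of at least 0.5 FPKM in 2 samples. The common biological coefficient of variation was 3.254%. The series calls the samples biological duplicates without saying whether cultures were separate, so p-values measure the spread between these samples, and 2 against 2 samples cannot reach an exact permutation p under 0.3333. Replicates differed by more than counting noise in each condition (chi-square per degree of freedom 1.885 to 3.712).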

Additional observations from a re-analysis of the deposited data

How the results depend on the processing

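Of 1000 refits of the values of the 21 members that met the rule for full values, 971 kept their direction and side of the threshold, 21 lost the call and 8 turned direction. In F against −F, 1 member was higher with at least 10 counts in every sample, 2 under limma on log2(FPKM + 1) and 16 with no minimum fold, where 5 were lower. In F2i against F, 1 was higher with that filter and under limma with either pseudocount and 16 with no minimum fold, and 1 was lower under limma on log2(FPKM + 1) and 10 with no minimum fold. In NB2i against F2i, 1 was higher under limma on log2(FPKM + 1) and 10 with no minimum fold, and 7 were lower with the stricter filter and 4 under limma on log2(FPKM + 1). In NB2i against −F, 12 were higher with no minimum fold and 4 lower under limma on log2(FPKM + 1). The stricter filter removes low genes, and the pseudocount shrinks their fold changes. From expected counts in place of FPKM, the laminin-binding share was 69.7%, 60.6%, 44.7% and 60.9% in −F, F, F2i and NB2i, and the RGD-binding share 25.5%, 31.8%, 48.0% and 34.2%.

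Leaving out each sample in turn, log2 values that turned direction were all uncalled, namely Itga6 (−0.068 to 0.029) and Itga7 (−0.246 to 0.286) in F against −F, Itga7 in F2i against F (−0.051 to 0.477), Itgav in NB2i against F2i (−0.01 to 0.13) and Lama4 in NB2i against −F (−0.164 to 0.279). Replicate numbers are shared between conditions in the labels, but same-numbered samples did not deviate together (mean r −0.0036 over 6 pairs of conditions, −0.0456 to 0.0538). With the replicate block the counts of higher and lower members were 5 and 0, 2 and 4, 2 and 13, and 6 and 10, as without it. Depth limits the 13 members under 1 FPKM, whose changes rest on few counts.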
